A study of Mus musculus with 8 samples.

Results

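The genes described here encode proteins of the Z-disc, the M-band and the costamere of the heart muscle cell. They were the 43 symbols of a list, matched exactly to the gene names of a table of 54429 rows, and all 43 were found. Of these, 42 reached 1 RPKM (reads scaled by gene length and by the library total) in at least 4 libraries and were tested, and Myom3 did not. The 42 tested genes were among 16385 tested in all. By structure the list holds 15 genes of the Z-disc, 6 of the M-band and thick filament, 2 of the pointed end of the thin filament, 4 of the intermediate filament linkage, 7 of the dystrophin complex, 6 of integrin adhesion and 3 of sarcomere assembly.

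The Z-disc anchors the thin filaments of neighbouring sarcomeres through alpha-actinin, and PDZ-LIM proteins bind alpha-actinin there. The M-band crosslinks the thick filaments at the centre of the sarcomere through myomesins, and titin spans from the Z-disc to the M-band. The costamere ties the Z-discs at the edge of the cell to the membrane and the extracellular matrix through the dystrophin complex and the integrin, talin and vinculin complex, and desmin filaments link Z-discs to each other and to the costamere. In the heart these links carry the force of each contraction, and mutations in many of the genes cause cardiomyopathy in humans.

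RNA was sequenced from both ventricles of C57BL/6 mice at postnatal day 35. All mice carried floxed alleles of Esrra and Esrrg, which encode estrogen-related receptors alpha and gamma, and all were injected with an adeno-associated virus (AAV) between postnatal days 0 and 1. The virus was AAV-cTnT-Cre in 4 libraries, labelled AAV-Cre, and a luciferase virus, Luc, in the other 4, labelled AAV-Luc. The cTnT (cardiac troponin T) promoter is active in cardiomyocytes, so the other cells of the ventricle are not meant to lose the receptors, and the labels call the result a knock-down. The comparison asks how the loss of both receptors after birth changes expression in the ventricle. Library numbers are names given by column order, and no label ties a library to its own mouse. The p-values below therefore describe variation among libraries, part of which may be technical.

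The targeted genes were examined first. Esrra was at 39.1 ± 4.66 RPKM (SD, n = 4) under the label AAV-Cre and at 45.1 ± 3.66 (SD, n = 4) under the label AAV-Luc, which did not pass the test as deposited (log2 fold change -0.21, limma adjusted p = 0.0705). Esrrg measured 218 ± 17.7 against 113 ± 5.51 RPKM (log2 fold change 0.95, adjusted p = 5.32e-06), which goes against the label. These are values of whole genes and cannot show whether the floxed exons were removed, which was not tested. Every direction given below is therefore one between libraries labelled AAV-Cre and libraries labelled AAV-Luc. The whole table was shifted too: the median log2 fold change of all genes tested was 0.41, a factor of 1.33, and 64.4% of genes were higher and 8.87% lower in AAV-Cre. Fold changes of the genes named below are therefore given both as deposited and after each library was centred on its median (centred), after which 21.8% of genes were higher and 24.1% lower. After centring, Esrra was lower in AAV-Cre (-0.62, adjusted p = 0.000549), the direction of its label, and Esrrg was still higher (0.54, adjusted p = 0.000317). The smallest steps of the RPKM values imply totals of 48287000 to 61248000 reads per library, at which 1 RPKM in a gene of 1 kilobase is 48.3 to 61.2 reads.

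Synm, Pdlim3 and Actn1 rose most among the 42 genes, and Tcap, Mybpc3, Sgca and Myom2 fell most. Of the 42 genes, 30 were higher and 6 lower as deposited, and 6 did not pass the test, with a median log2 fold change of 0.43 beside 0.41 for all genes. That share of rises is close to the 64.4% of the whole table. After centring, 12 were higher, 11 lower and 19 not called, with a median of 0.02, beside the 21.8% and 24.1% of all genes. The count of 12 fell to 7 without AAV-Cre library 2 or without AAV-Luc library 4, and that of 6 lower fell to 3 without AAV-Cre library 2, AAV-Cre library 4 or AAV-Luc library 2. At least 2-fold changes as deposited were seen in 6 genes upwards (8.87% of all genes) and in 1 downwards (1.79%). In 27 genes all AAV-Cre values lay above all AAV-Luc values, and in 3 all lay below, beside 58.4% and 7.67% of all genes. In all 4 scalings tried (as deposited, centred, quantile normalized, and with mitochondrial and haemoglobin genes left out), 12 members were higher and 6 lower, beside 21.4% and 8.62% of all genes. The 12 were Synm, Pdlim3, Actn1, Pdlim7, Smyd2, Actn4, Sgcd, Nebl, Tln2, Dmd, Synpo2l and Sgcb, and the 6 were Tcap, Mybpc3, Sgca, Myom2, Plec and Nrap. In bulk tissue, fewer cells of a type and less RNA per cell cannot be told apart.

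**Figure D1:**
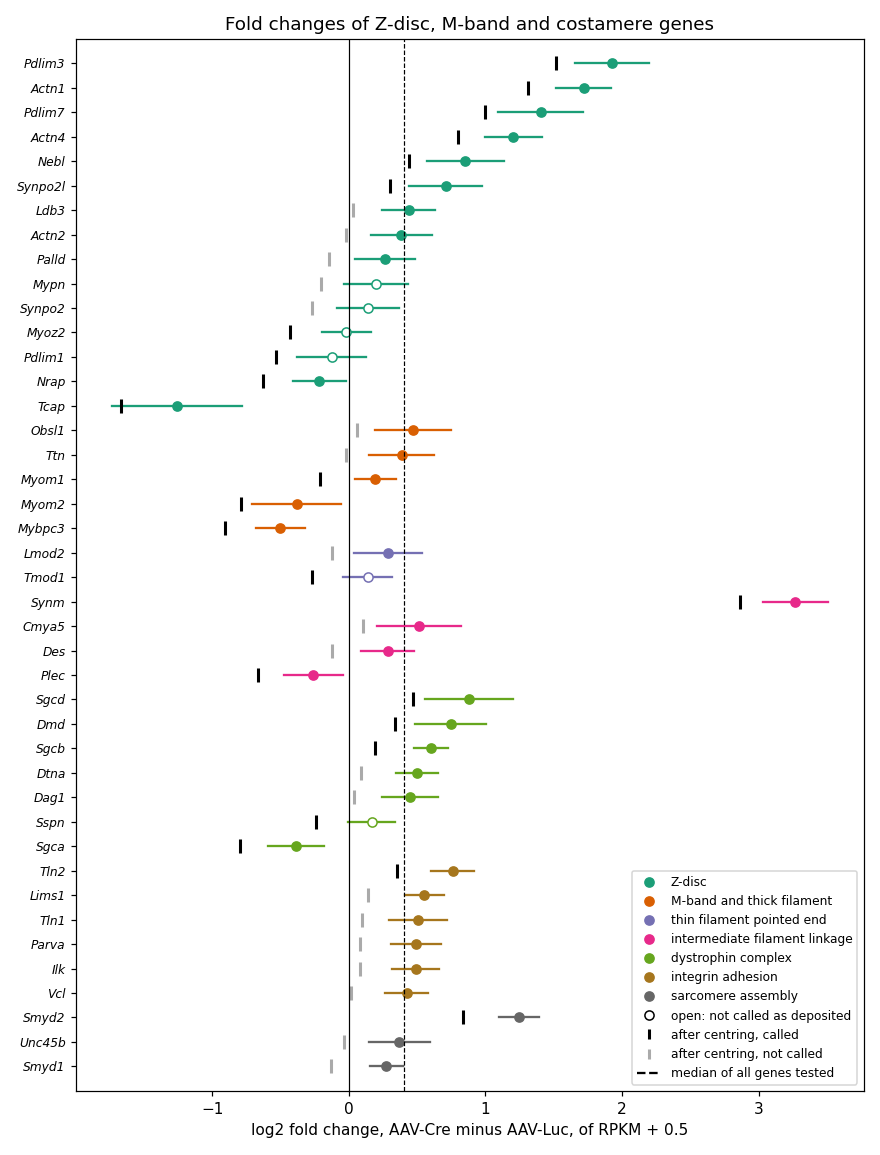
Log2 fold change of RPKM + 0.5, AAV-Cre minus AAV-Luc, for the 42 genes tested (horizontal axis), grouped by structure. Circles with lines are the values as deposited with 95% intervals (open where the test was not passed), vertical ticks are the values after centring, and the dashed line is the median of all genes tested, 0.41; Synm, at 3.27, stands farthest to the right and Tcap, at -1.26, farthest to the left.

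The 250 bases before the RefSeq start of 3 of these genes are shown. The 3 were chosen as the largest rise (Synm), the largest rise of a Z-disc gene (Pdlim3) and a thick filament gene that fell (Mybpc3). The sequences are from RefSeq on GRCm38.p6, read 5′ to 3′ on the strand of the gene, from chr7:67759743-67759992 (minus), chr8:45885237-45885486 (plus) and chr2:91117894-91118143 (plus). Capitals mark GGAATG on either strand in Pdlim3 (the core of the M-CAT element bound by TEAD factors) and a MEF2 site in Mybpc3. The Pdlim3 window runs past the gene start given below from GENCODE, 45885461. Its last bases, with the capitals nearest the end, lie inside that gene model. No motif searched was found in the Synm window.
Synm: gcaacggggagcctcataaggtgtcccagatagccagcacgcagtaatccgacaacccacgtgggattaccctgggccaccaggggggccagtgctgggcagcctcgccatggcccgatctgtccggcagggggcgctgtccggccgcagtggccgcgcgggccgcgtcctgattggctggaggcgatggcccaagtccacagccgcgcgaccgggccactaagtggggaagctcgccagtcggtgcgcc
Pdlim3: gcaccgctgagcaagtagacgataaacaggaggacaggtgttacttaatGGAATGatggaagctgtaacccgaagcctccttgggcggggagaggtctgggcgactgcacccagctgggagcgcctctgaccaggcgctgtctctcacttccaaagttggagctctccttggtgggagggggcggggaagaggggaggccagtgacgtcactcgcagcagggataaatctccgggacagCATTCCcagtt
Mybpc3: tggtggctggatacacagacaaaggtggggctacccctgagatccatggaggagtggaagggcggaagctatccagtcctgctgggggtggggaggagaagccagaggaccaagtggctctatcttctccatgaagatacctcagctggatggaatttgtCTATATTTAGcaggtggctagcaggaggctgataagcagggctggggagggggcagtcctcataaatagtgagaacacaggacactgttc
The search covered both strands of 50 windows of 37 of the 43 genes, and Dtna, Myom2, Parva, Plec, Tcap and Tln2 had no entry. AAGGTCA, the core of the element that estrogen-related receptors bind, was in 0 of these genes' windows and in 4.08% of all 32851 windows of the table. A MEF2 site was in 9 of the 50 windows, those of Dmd, Lims1, Mybpc3, Myom3, Myoz2, Synpo2, Synpo2l and Ttn, and in 2.92% of all windows. A CArG box, the site of serum response factor, was in 6 of the 50, those of Dmd, Ldb3, Myom1, Nebl and Vcl, and in 1.47% of all. The windows of Ldb3 overlap and hold the same box, which is counted in both. MEF2 sites and CArG boxes are both rich in A and T, and in the window of Dmd that held both they did not overlap. GGAATG was in 10 of the 50 and in 12.6% of all. A match is a description of these letters only, and no match says only that they are not in the window.

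Among the alpha-actinins, the sarcomeric form changed by as much as the typical gene and the other 2 forms by more. Actn2, the sarcomeric alpha-actinin (chr13:12269426-12340760, minus strand), measured 525, 476, 564 and 437 RPKM in AAV-Cre libraries 1 to 4 and 404, 402, 327 and 399 in AAV-Luc libraries 1 to 4. The groups did not overlap, and a log2 fold change of 0.39 was found as deposited (SE 0.10, limma adjusted p = 0.00628) beside -0.02 after centring (adjusted p = 0.862). Actn1, a widely expressed alpha-actinin of adhesions and stress fibres (chr12:80167547-80260371, minus strand), measured 24.4, 25.0, 24.3 and 28.3 RPKM in AAV-Cre and 7.46, 8.37, 6.38 and 7.46 in AAV-Luc. Every AAV-Cre library was more than 2-fold above every AAV-Luc library. It rose by 1.72 on the log2 scale (SE 0.09, adjusted p = 6.95e-07), and by 1.31 after centring (adjusted p = 1.19e-06). Actn4, the other widely expressed form, measured 64.4, 61.5, 64.6 and 63.7 RPKM in AAV-Cre and 31.3, 28.3, 22.5 and 27.8 in AAV-Luc. Its groups did not overlap either, and it rose by 1.2 (SE 0.09, adjusted p = 5.81e-06; centred 0.80).

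The PDZ-LIM proteins, which bind alpha-actinin, differed among themselves. Pdlim3, the actinin-associated LIM protein (chr8:45885461-45919548, plus strand), measured 42.8, 42.6, 39.6 and 53.5 RPKM in AAV-Cre and 12.6, 12, 11.8 and 9.09 in AAV-Luc. The groups were far apart, and it rose by 1.93 (SE 0.12, adjusted p = 1.95e-06; centred 1.52). Pdlim7, also called enigma, measured 44.6, 38.3, 46.8 and 45.6 RPKM in AAV-Cre and 19.7, 16.3, 12 and 17.8 in AAV-Luc. Its AAV-Luc value was lowest in library 3 and the groups did not overlap, with a rise of 1.40 (SE 0.14, adjusted p = 2.29e-05; centred 1.00). Ldb3, also called ZASP or Cypher and needed in mice for stable Z-discs, measured 169, 166, 193 and 154 RPKM in AAV-Cre and 135, 129, 111 and 127 in AAV-Luc. Again without overlap, it rose by 0.44 as deposited (adjusted p = 0.00132), which after centring was 0.03 (adjusted p = 0.785). Pdlim1, also called CLP36, measured 16.3, 13.5, 12.3 and 16.4 RPKM in AAV-Cre and 17.6, 15.9, 13.6 and 16.6 in AAV-Luc. Its groups overlapped, and it did not pass as deposited (-0.13, adjusted p = 0.332), and was lower after centring (-0.53, adjusted p = 0.00183).

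Of the other Z-disc genes, Tcap fell most. It encodes telethonin, which caps the end of titin at the Z-disc (chr11:98383811-98384953, plus strand). Its values were 117, 124, 172 and 86.9 RPKM in AAV-Cre and 215, 283, 320.1 and 367 in AAV-Luc. The groups did not overlap, with the highest AAV-Cre value in library 3, and it fell by 1.26 (SE 0.21, adjusted p = 0.000525; centred -1.67). Nebl, which encodes nebulette, a nebulin family protein of the cardiac Z-disc, measured 99.2, 111, 92.6 and 122 against 55.1, 59.0, 72.6 and 48.9 RPKM. The groups did not overlap (0.85, SE 0.13, adjusted p = 0.000238; centred 0.44, adjusted p = 0.0239). After centring the call of Nebl was lost, with adjusted p of 0.0514 to 0.0662, without any one of AAV-Cre libraries 2 and 4 or AAV-Luc libraries 1, 2 and 4. Nrap, the nebulin-related anchoring protein of intercalated discs and young myofibrils, measured 88.6, 75.2, 83.6 and 73.0 RPKM in AAV-Cre and 95.6, 104, 84.3 and 88.7 in AAV-Luc. It fell with groups that overlapped (-0.22, adjusted p = 0.0455; centred -0.62, adjusted p = 0.000203). Its call as deposited was lost, with adjusted p of 0.0511 to 0.117, without any one of AAV-Cre libraries 2, 3 and 4 or AAV-Luc libraries 1, 2 and 4.

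Synpo2l, an actin-binding Z-disc protein, measured 39.6, 37.9, 29.7 and 32.8 RPKM in AAV-Cre and 23.5, 23.9, 17.9 and 19.6 in AAV-Luc. The groups did not overlap, and it rose by 0.71 (adjusted p = 0.000498; centred 0.30, adjusted p = 0.0374). Its relative Synpo2 (myopodin) measured 28.6, 26.4, 33.4 and 23.9 RPKM in AAV-Cre and 26.4, 26.2, 23.0 and 25.4 in AAV-Luc. These groups overlapped, and the test was not passed (0.14, adjusted p = 0.224; centred -0.27). After centring the call of Synpo2l was lost, with adjusted p of 0.0883 to 0.0992, without AAV-Cre library 1 or 2 or AAV-Luc library 3 or 4. Myoz2, which encodes calsarcin-1, a calcineurin-binding partner of alpha-actinin, was at 477 ± 38.7 and 484 ± 37.3 RPKM and did not pass as deposited (log2 fold change -0.02, 95% interval -0.20 to 0.16). After centring Myoz2 was lower by the test (-0.43, adjusted p = 0.00329). Palld (palladin), an actin crosslinker, measured 63.1, 55.9, 72.9 and 60.7 RPKM in AAV-Cre and 58.3, 49.4, 46.8 and 55.3 in AAV-Luc. The groups overlapped, and its log2 fold change was 0.26 as deposited (adjusted p = 0.0323) and -0.14 after centring. Without AAV-Cre library 1 or 3 or AAV-Luc library 2 or 3 the adjusted p of Palld was 0.0626 to 0.0823. Mypn (myopalladin), its relative, measured 23.5, 21.1, 24.9 and 17.7 RPKM in AAV-Cre and 19.9, 19.5, 17.0 and 18.7 in AAV-Luc. Its groups also overlapped, and it had 0.20 (adjusted p = 0.107) and -0.21 after centring, and passed as deposited only without AAV-Cre library 4 (adjusted p = 0.0134). In all, 9 of the 15 Z-disc genes were higher and 2 lower as deposited, beside 64.4% and 8.87% of all genes. After centring 6 were higher and 4 lower, beside 21.8% and 24.1% of all genes.

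**Figure D2:**
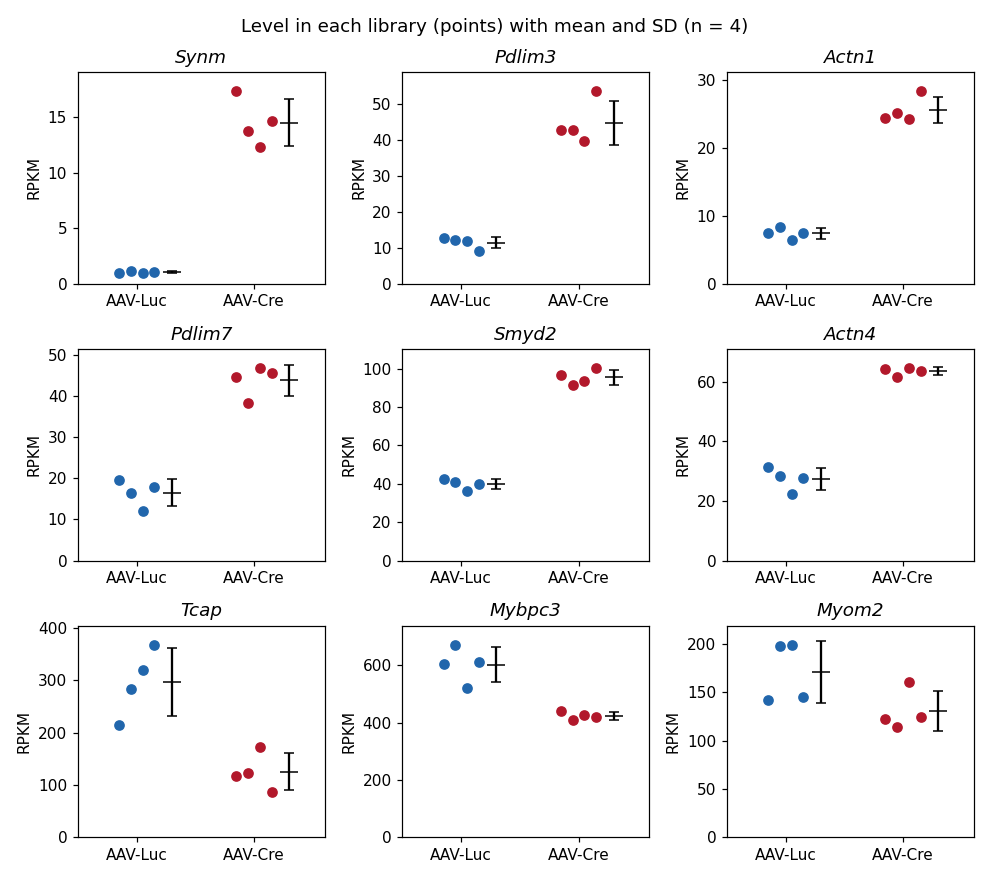
RPKM (vertical axis, from 0) in each of the 4 AAV-Luc (blue) and 4 AAV-Cre (red) libraries for 9 genes, with the mean and SD of each group beside the points. In Synm, Pdlim3, Actn1, Pdlim7, Smyd2 and Actn4 all AAV-Cre points lie above all AAV-Luc points, in Tcap and Mybpc3 all lie below, and in Myom2 the groups overlap.

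In the M-band and thick filament, 3 of the 5 tested genes were higher and 2 lower as deposited, beside 64.4% and 8.87% of all genes. After centring 0 were higher and 3 lower, beside 21.8% and 24.1% of all genes. Mybpc3, cardiac myosin-binding protein C, which sits on the thick filament on either side of the M-band (chr2:91118144-91136516, plus strand), measured 442, 409.7, 427 and 419.9 RPKM in AAV-Cre and 605, 672, 523 and 613 in AAV-Luc. The AAV-Cre values lay close together and below every AAV-Luc value, and it fell by 0.50 (SE 0.08, adjusted p = 0.000375; centred -0.91). Myom2, the M-protein, measured 122, 115, 161 and 124 RPKM in AAV-Cre and 142, 198, 199 and 145 in AAV-Luc. The groups overlapped through AAV-Cre library 3, and the fold change was -0.38 (adjusted p = 0.0363; centred -0.79, adjusted p = 0.00272). As deposited the call of Myom2 was lost, with adjusted p of 0.076 to 0.0982, without any one of AAV-Cre libraries 1, 2 and 4 or AAV-Luc libraries 2 and 3.

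Myom1, which encodes myomesin, the main crosslinker of the M-band, measured 711, 650.5, 693 and 725 RPKM in AAV-Cre and 600.3, 633, 558 and 638 in AAV-Luc. The groups did not overlap, and it was called higher as deposited (0.19, adjusted p = 0.0251) and lower after centring (-0.21, adjusted p = 0.0226). Its call as deposited was lost, with adjusted p of 0.0549 to 0.061, without AAV-Cre library 1 or 4 or AAV-Luc library 1 or 3, and its call after centring without AAV-Cre library 2 or AAV-Luc library 4 (adjusted p of 0.0735 and 0.0726). Myom3, the third myomesin, measured 0.585, 0.555, 0.656 and 0.646 RPKM in AAV-Cre and 0.347, 0.507, 0.463 and 0.420 in AAV-Luc. All its values were below the filter. Ttn, which encodes titin, rose from 35.8 ± 5.45 to 46.6 ± 3.26 RPKM as deposited (0.39, adjusted p = 0.00863), and was at -0.02 after centring. Obsl1, a cytoskeletal linker that binds titin and myomesin, was at 0.47 (adjusted p = 0.00658) and 0.06 after centring.

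At the pointed end of the thin filament, Lmod2 (leiomodin 2), which lengthens the filament, measured 244, 206, 263 and 185 RPKM in AAV-Cre and 199, 168, 179.8 and 183 in AAV-Luc. The groups overlapped through AAV-Cre library 4. Its log2 fold change was 0.29 (adjusted p = 0.0389) as deposited and -0.12 after centring, and its adjusted p was 0.0689 to 0.1 without any one of AAV-Cre libraries 1 and 3 or AAV-Luc libraries 2, 3 and 4. Tmod1 (tropomodulin 1), which caps the filament, measured 94.7, 91.2, 109 and 87.6 RPKM in AAV-Cre and 85.7, 89.8, 80.1 and 91.3 in AAV-Luc. Its groups overlapped, and it did not pass as deposited (0.14, adjusted p = 0.143), and was lower after centring (-0.27, adjusted p = 0.0211). That call of Tmod1 was lost without AAV-Cre library 2, AAV-Cre library 4 or AAV-Luc library 4 (adjusted p of 0.0558 to 0.0611). The annotated exons of Tmod1 share 32.6% of their bases with Tstd2, so reads of the pair may be mixed.

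Synm had the largest change of all members. It encodes synemin, an intermediate filament protein that joins desmin to alpha-actinin, vinculin and the dystrophin complex (chr7:67730160-67759742, minus strand). It measured 17.4, 13.7, 12.4 and 14.7 RPKM in AAV-Cre and 1.00, 1.17, 0.967 and 1.06 in AAV-Luc. Every AAV-Cre library was far above every AAV-Luc library, and the means of 14.5 ± 2.12 and 1.05 ± 0.0897 RPKM differed 13.8-fold. The log2 fold change, made smaller by the pseudocount of 0.5, was 3.27 (SE 0.11, adjusted p = 6.15e-08; centred 2.86). The desmin gene itself, Des, was at 345 ± 30.2 and 283 ± 24.9 RPKM (0.28, adjusted p = 0.0136; centred -0.12, adjusted p = 0.219).

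Plec (plectin), which links intermediate filaments to the Z-disc and the membrane, measured 13.8, 12.8, 14.0 and 12.8 RPKM in AAV-Cre and 17.8, 17.1, 13.1 and 16.6 in AAV-Luc. The groups overlapped only through AAV-Luc library 3, and the fold change was -0.26 (adjusted p = 0.0317; centred -0.67, adjusted p = 0.000103). As deposited this call of Plec was lost, with adjusted p of 0.0728 to 0.0869, without any one of AAV-Cre libraries 2 and 4 or AAV-Luc libraries 1, 2 and 4. Cmya5 (myospryn), which binds desmin, rose from 47.1 ± 9.36 to 66.7 ± 6.65 RPKM as deposited (0.51, adjusted p = 0.00743; centred 0.10, adjusted p = 0.599). The gene model A630019I02Rik overlaps 20.7% of the exon bases of Cmya5. This model measured 60.6, 58.7, 50.4 and 55.6 RPKM in AAV-Cre and 25.6, 49.1, 53.8 and 4.94 in AAV-Luc. Its groups overlapped, and its means of 56.3 ± 4.45 and 33.4 ± 22.6 RPKM differed in the direction of Cmya5. The value and the fold change of Cmya5 are therefore uncertain.

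In the dystrophin complex, which links actin to laminin across the membrane, the sarcoglycans moved in opposite directions. Sgcd (delta-sarcoglycan) measured 107, 101, 86.0 and 105 RPKM in AAV-Cre and 51.3, 56.9, 69.6 and 41.4 in AAV-Luc. No AAV-Luc value reached the AAV-Cre values, and it rose by 0.88 (SE 0.14, adjusted p = 0.000431; centred 0.47, adjusted p = 0.0321). Sgca (alpha-sarcoglycan) measured 31.4, 25.6, 29.4 and 25.5 RPKM in AAV-Cre and 36.7, 39.4, 32.2 and 38.7 in AAV-Luc. All AAV-Cre values of Sgca were below all AAV-Luc values, and it fell by 0.39 (SE 0.09, adjusted p = 0.00377; centred -0.80, adjusted p = 6.2e-05). Sgcb (beta-sarcoglycan) rose from 25.5 ± 0.910 to 38.8 ± 1.33 RPKM (0.60, adjusted p = 1.7e-05; centred 0.19, adjusted p = 0.0371).

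Dmd, which encodes dystrophin (chrX:82948870-85206141, plus strand), measured 75.1, 82.6, 63.6 and 84.6 RPKM in AAV-Cre and 47.0, 42.6, 53.2 and 39.1 in AAV-Luc. The values of the 2 groups were separate, and it rose by 0.75 (SE 0.12, adjusted p = 0.000309; centred 0.34, adjusted p = 0.0476). Dtna (alpha-dystrobrevin) and Dag1 (dystroglycan, the laminin receptor) rose as deposited by 0.50 and 0.45, and were at 0.09 and 0.04 after centring. Sspn (sarcospan), a membrane protein bound to the sarcoglycans, did not pass as deposited (0.17, adjusted p = 0.0768) unless AAV-Luc library 2 was left out (adjusted p = 0.0167), and was lower after centring (-0.24, adjusted p = 0.0164). After centring the calls of Dmd, Sgcd and Sgcb were each lost in 6 of the 8 settings without 1 library, with adjusted p of 0.0558 to 0.124, and kept only without AAV-Cre library 3 or AAV-Luc library 3 (Dmd and Sgcd) and AAV-Cre library 4 or AAV-Luc library 3 (Sgcb). Sgcb kept its call as deposited in all 8.

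The 6 genes of the integrin adhesion all rose as deposited, by 0.42 to 0.76, beside 64.4% of all genes. Their median was 0.50, beside 0.41 for all genes. After centring 1 of them, Tln2, was called higher, beside 21.8% of all genes. Tln2, the talin of mature striated muscle (chr9:67217087-67559703, minus strand), measured 14.9, 13.4, 15.4 and 14.7 RPKM in AAV-Cre and 8.36, 8.87, 7.70 and 8.69 in AAV-Luc. Without overlap of the groups, it rose by 0.76 (SE 0.07, adjusted p = 1.72e-05; centred 0.35, adjusted p = 0.00205). Tln1, the widely expressed talin that links integrins to actin, measured 25.3, 25.8, 28.1 and 26.6 RPKM in AAV-Cre and 20, 19.1, 15.1 and 20.2 in AAV-Luc. It rose without overlap by 0.51 (adjusted p = 0.000992; centred 0.10). Vcl (vinculin), which binds talin and actin, rose by 0.42 (adjusted p = 0.000506; centred 0.01). Ilk, Lims1 and Parva encode the integrin-linked kinase, PINCH1 and alpha-parvin, which form a complex on integrin tails, and rose by 0.49, 0.55 and 0.49 as deposited, and were at 0.08, 0.14 and 0.09 after centring. The exons of Ilk share 76.7% of their bases with Taf10 on the opposite strand and those of Vcl share 25.5% with Ap3m1, so both values are uncertain, as the use of strand is not stated.

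Among the sarcomere assembly factors, Smyd2, a lysine methyltransferase of Hsp90 that associates with titin (chr1:189880492-189922363, minus strand), measured 96.6, 91.5, 93.5 and 100.4 RPKM in AAV-Cre and 42.6, 41.1, 36.4 and 40.0 in AAV-Luc. The groups were more than 2-fold apart, and it rose by 1.24 (SE 0.06, adjusted p = 7.15e-07; centred 0.84, adjusted p = 2.25e-06). The gene model Gm37422, on the opposite strand, overlaps 30.0% of the exon bases of Smyd2. It was at 13.3 ± 0.648 RPKM in AAV-Cre and 5.79 ± 0.421 in AAV-Luc, a difference in the direction of Smyd2. As the use of strand is not stated, the value of Smyd2 and its ratio to Smyd1 given below are uncertain. Smyd1, the striated muscle methyltransferase needed in mice for heart development, measured 153, 148, 156 and 149 RPKM in AAV-Cre and 122, 129.7, 119.9 and 129 in AAV-Luc. It rose without overlap as deposited (0.28, adjusted p = 0.00126; centred -0.13, adjusted p = 0.0776). Unc45b, the chaperone of muscle myosin, was at 0.37 (adjusted p = 0.00791) as deposited and -0.04 after centring, with overlapping groups.

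In ratios of family members within a library, here of RPKM + 0.5, a scale factor common to the library cancels except for the pseudocount. Variation of a library along GC content, described below, need not cancel where the 2 genes differ in it, as Nrap (53.5% GC) and Nebl (40.1%) do. Of the 12 family pairs, 7 had groups that did not overlap (two-sided exact permutation p = 0.0286, the lowest value possible for 4 against 4 libraries, and 0.049 after Benjamini-Hochberg adjustment over the 12). This adjusted p rests on all 7: with a pseudocount of 1, or without AAV-Cre library 1, Tln1 to Tln2 no longer passed and the smallest adjusted p of any pair was 0.0572. Without AAV-Cre library 2 or AAV-Cre library 4, Nrap to Nebl did not pass either, and it was 0.0686. The ratio of Actn1 to Actn2 was 0.0439 to 0.0659 in AAV-Cre and 0.0197 to 0.0220 in AAV-Luc, a difference of 1.33 on the log2 scale. The ratio of Actn4 to Actn2 was 0.115 to 0.147 against 0.0703 to 0.0786 (0.82). That of Pdlim1 to Pdlim3 was 0.313 to 0.387 against 1.14 to 1.78 (-2.05), so Pdlim3 was the more abundant of the pair per length in every AAV-Cre library and Pdlim1 in every AAV-Luc library.

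The order within a pair also turned for the nebulin relatives: the ratio of Nrap to Nebl was 0.599 to 0.903 in AAV-Cre and 1.16 to 1.80 in AAV-Luc (-1.07). The ratio of Smyd2 to Smyd1 was 0.602 to 0.673 against 0.307 to 0.351 (0.97), and that of Pdlim7 to Ldb3 was 0.232 to 0.299 against 0.112 to 0.149 (0.96). The ratio of Tln1 to Tln2 was 1.67 to 1.90 against 1.90 to 2.31 (-0.25), with groups that nearly touched. The groups overlapped for Myom2 to Myom1 (-0.58, exact permutation p = 0.0571, adjusted p = 0.0857) and for Synpo2 to Synpo2l (-0.57, p = 0.0857, adjusted p = 0.114). The pairs Lmod2 and Tmod1, Palld and Mypn, and Myom3 and Myom1 differed by 0.15, 0.06 and 0.06 with exact permutation p of 0.171, 0.6 and 0.486.

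**Figure D3:**
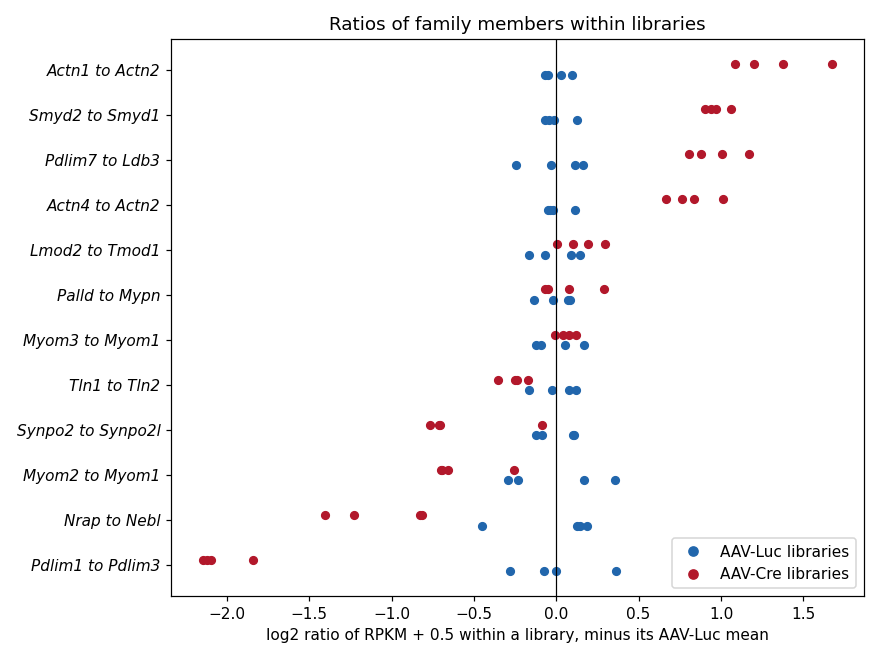
Log2 ratio of RPKM + 0.5 of 12 family pairs within each library, minus the mean of the AAV-Luc libraries (horizontal axis), with AAV-Luc libraries in blue and AAV-Cre libraries in red. The red points of Actn1 to Actn2, 1.33 higher on average, lie to the right of all blue points, and those of Pdlim1 to Pdlim3, 2.05 lower, to the left.

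Other genes of the same structures, from lists that hold 72 genes outside the members, moved in both directions. Of the 65 tested, 44 were higher and 9 lower as deposited, with a median of 0.44, and 18 were higher and 18 lower after centring, beside the 64.4% and 8.87% (as deposited) and 21.8% and 24.1% (centred) of all genes. Among 18 other Z-disc genes, 11 were higher and 4 lower, and after centring 6 were higher and 6 lower. Fhl1, a LIM protein that binds titin and alpha-actinin, rose from 34.2 ± 1.35 to 448 ± 26.0 RPKM (3.69, adjusted p = 1.83e-09; centred 3.28), and Ankrd1, a stress-responsive titin-binding repeat protein, rose by 3.02 (adjusted p = 1.99e-07; centred 2.61). Myot (myotilin), an actin crosslinker of the Z-disc, fell by 2.00 (adjusted p = 6.63e-06; centred -2.41), Xirp2, an actin-binding protein of the intercalated disc, fell by 1.09 (adjusted p = 0.000377; centred -1.49) and Pdlim4 fell by 0.88 (adjusted p = 0.000142; centred -1.29).

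The list counts that follow stand beside 64.4% higher and 8.87% lower for all genes as deposited, and 21.8% and 24.1% after centring. In the M-band lists, 5 of 10 other genes were higher and 2 lower, and after centring 2 were higher and 4 lower. The dystrophin lists had 11 of 14 higher and 0 lower as deposited, and 3 higher and 3 lower after centring. Sntb1 (beta1-syntrophin), a dystrophin-binding adaptor, rose by 1.43 (adjusted p = 1.38e-06; centred 1.02). In the integrin lists, 10 of 12 were higher and 1 lower, and after centring 4 were higher and 2 lower. Itgb1 (integrin beta1) rose from 115.0 ± 6.62 to 231 ± 24.4 RPKM (1.00, adjusted p = 9.39e-06; centred 0.59), and Parvb (beta-parvin) fell by 0.71 (adjusted p = 0.000353; centred -1.12). At the pointed end, 2 of 4 were higher and 1 lower, and after centring 0 were higher and 2 lower. Tmod4, a tropomodulin of skeletal muscle, fell by 0.83 (adjusted p = 9.65e-05; centred -1.24). In the assembly list, 5 of 7 were higher and 1 lower, and after centring 3 were higher and 1 lower. The higher genes of both counts include Chn1 (chimerin 1), whose place among assembly factors is uncertain. Hsp90aa1, the myosin chaperone methylated by Smyd2, rose by 1.39 (adjusted p = 6.13e-07; centred 0.98) and Hspb7, a small heat shock protein of heart muscle, fell by 0.43 (adjusted p = 0.00133; centred -0.83).

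Some markers of other cells moved with these groups. The counts of calls below stand beside 64.4% higher and 8.87% lower for all genes as deposited, and 21.8% and 24.1% after centring. Smooth muscle and pericyte markers (10 genes) summed to 1542 to 1931 RPKM in AAV-Cre and 360 to 539 in AAV-Luc, with 5 called higher and 2 lower as deposited and 5 and 5 after centring. Most of that sum in AAV-Cre was Acta2 (1202 to 1592 against 92.5 to 170.2 RPKM), and the other 9 genes summed to 337 to 368 and 267 to 379, which overlap. Fibroblast markers (10 genes, 10 called higher, and 9 after centring) summed to 1795 to 3152 and 740.2 to 896. Macrophage markers (10 genes, 9 called higher, and 9 higher and 1 lower after centring) summed to 361 to 476 and 186 to 199. No marker of these lists was at 0 in all libraries. Actn1, Actn4, Pdlim7, Synm, Tln1 and Itgb1 are also expressed by such cells, and the part of these cells in the rises was not tested. Cardiomyocyte markers (8 genes) had 2 called higher and 4 lower as deposited, and 0 higher and 6 lower after centring. They summed to 21321 to 25160 RPKM in AAV-Cre and 25737 to 29503 in AAV-Luc, high in both groups as the labelled tissue calls for. These sums did not overlap and were lower in AAV-Cre. Tnnt2 alone was higher in AAV-Cre (5027 to 5996 against 3330 to 4203 RPKM), and the other 7 genes summed to 16100 to 19165 and 22356 to 25301. Atrial markers (6 genes) summed to 4667 to 10242 and 105 to 224 RPKM, of which Nppa was 4547 to 10134 and 94.3 to 169, and the other 5 genes summed to 93.9 to 229.6 and 10.8 to 55.8. Endothelial markers (10 genes) summed to 327 to 415 and 261 to 309 RPKM, with 3 higher and 0 lower as deposited, and 1 higher and 6 lower after centring. Skeletal muscle markers (8 genes, 3 tested and called higher, and 2 after centring) summed to 13.4 to 27.2 and 2.57 to 4.28 RPKM. The part of atrial, endothelial and skeletal muscle cells was not tested either. Leaving out AAV-Cre library 3 and AAV-Luc library 2, those with the most Myl7 of their groups, left 29 members higher and 4 lower.

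**Figure D4:**
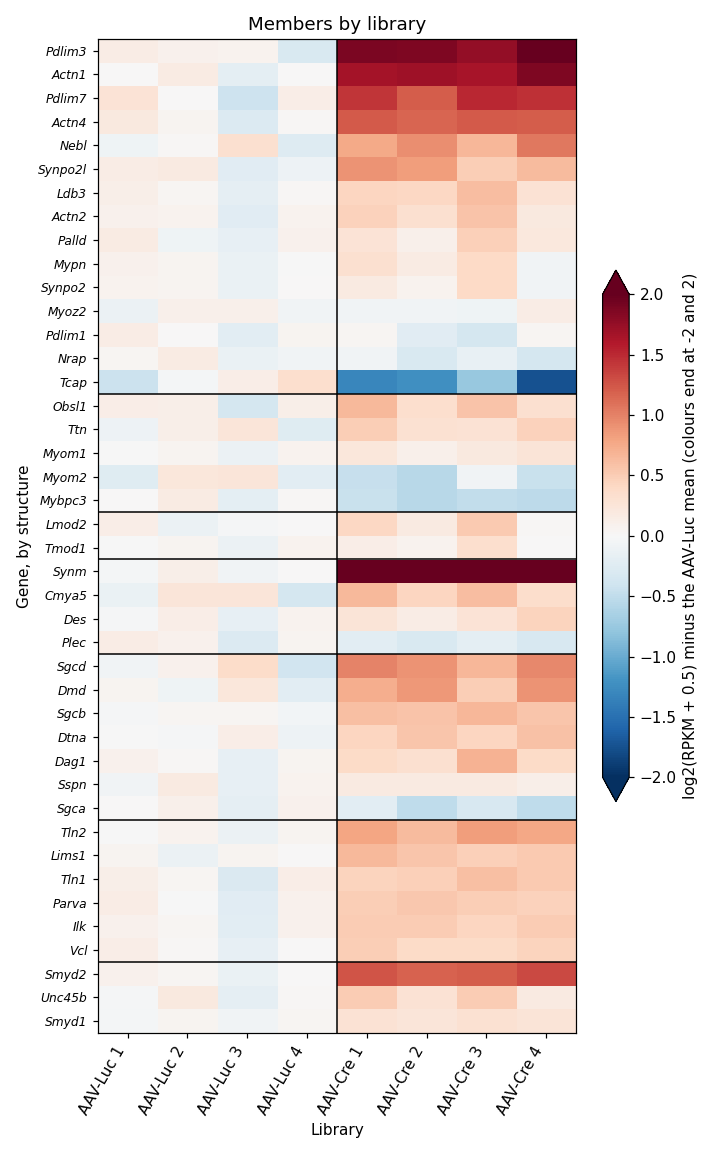
Level of each of the 42 genes tested (vertical axis, by structure) in each library (horizontal axis), as log2(RPKM + 0.5) minus the mean of the AAV-Luc libraries, red for higher and blue for lower. Synm, Pdlim3 and Actn1 are red in all 4 AAV-Cre libraries and Tcap and Mybpc3 are blue in all 4, and the column of AAV-Luc 3 differs from the other AAV-Luc columns in most genes.

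The libraries also varied among themselves along the base composition of the genes. AAV-Luc library 3 had the lowest value of its group in 29 of the 42 members. Across the 42 members, its deviation from the group mean had a Spearman rho of -0.64 with the GC content of the transcript, and across 16226 genes a rho of -0.51. In AAV-Cre library 3 the rho was 0.46 across the members and 0.36 across all genes. Across the members it was 0.55 in AAV-Luc library 4, -0.42 in AAV-Cre library 4 and -0.34 in AAV-Cre library 2. In AAV-Luc library 2, AAV-Luc library 1 and AAV-Cre library 1 it was 0.27, 0.25 and 0.18. Across all genes AAV-Luc library 2 had a rho of 0.35. Deviations are taken from the mean of the group, so those of its libraries are not independent of each other. Genes are not independent replicates, and the points of a library share its depth and preparation, so these are descriptions. The fold changes themselves had a rho of -0.19 with GC content across the members and -0.04 across all genes.

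**Figure D5:**
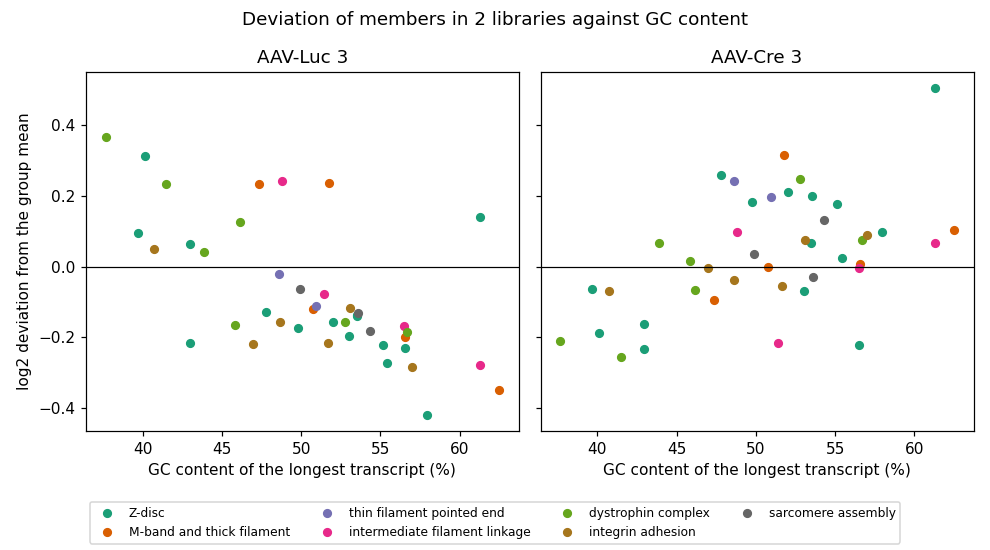
Deviation of each of the 42 genes tested from the mean of its group, on the log2 scale (vertical axis), against the GC content of its longest transcript in percent (horizontal axis), for AAV-Luc library 3 (left) and AAV-Cre library 3 (right), coloured by structure. The points slope down in AAV-Luc library 3 (Spearman rho -0.64) and up in AAV-Cre library 3 (rho 0.46). Other libraries are not shown, among them AAV-Luc library 4 (rho 0.55) and AAV-Cre library 4 (rho -0.42).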

How the data were processed

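Ventricular poly(A) RNA was sequenced as read pairs, in 4 libraries per group. The authors deposited 1 table of RPKM values with the averages of each group. The submitters' processing notes name mm10, STAR, edgeR, Partek 6.6 and FastQC 0.11. Which tool made the values, with what annotation and lengths, and whether strand was used, is not given in the sources used here. In the labels, the protocols name both a TruSeq and a NEBNext Ultra kit. Column names give the group and no number that tells libraries apart, so a column stands for a library of its group that cannot be tied to a sample, and 0 columns were left without a group. RPKM is relative to the library total, so less of an abundant transcript raises the other values.

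A filter of 1 RPKM in 4 or more libraries left 16385 genes. Their log2(RPKM + 0.5) values were compared by limma 3.58.1 (R 4.3.3) with a trended prior variance. Benjamini-Hochberg adjustment of p-values ran over these genes, with a threshold of 0.05. The pseudocount understates the changes of low genes. Centring subtracted the median of the tested genes from each library. Ratios of 12 family pairs were compared by two-sided exact permutation tests over 70 arrangements. Positions and exon overlaps are from GENCODE M21 on mm10. Depth came from the smallest steps of RPKM times transcript length, of which 98.6 to 99.3% were whole within 0.1. Those of even size made up 73.3 to 79.1%, so the totals appear to count single reads of pairs, and independent fragments would be fewer. All members were named, and from each list of other genes up to 3 called genes in each direction with the smallest p could be named. A gene that this rule named is not reported here. The members and lists were chosen with earlier results of these data known. Python 3.11.15, numpy 2.4.6, pandas 2.3.3, scipy 1.17.1 and matplotlib 3.10.9 were used for annotation and plots, and the test was tested on simulated data. Alternatives were other pseudocounts, filters, scalings, a robust prior, library weights and leaving out libraries.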

Additional observations from a re-analysis of the deposited data

Results flagged for a closer look

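Of 160 sets of 4 libraries of 1 group examined, for members, named related genes and ratios, 13 had 1 library far from the other 3. For independent sets of normal values, about 1 in 20 would be flagged. The sets here share the same libraries, and the ratios reuse values of members. The count of 13 therefore cannot be tested against that rate. AAV-Luc library 3 was low for Actn2 (327 RPKM, others 399 to 404), Obsl1 (101 RPKM, others 138 to 139.9) and Ilk (27.1 RPKM, others 32.6 to 33.7), and for the ratio of Nrap to Nebl (1.16, others 1.73 to 1.80). AAV-Cre library 3 was high for Dag1 (95.1 RPKM, others 73.5 to 76.7), for the ratio of Synpo2 to Synpo2l (1.12, others 0.699 to 0.731) and for the ratio of Myom2 to Myom1 (0.233, others 0.172 to 0.177), and low for Ilk (43.0 RPKM, others 45.1 to 45.4). AAV-Cre library 4 was high for Myoz2 (535 RPKM, others 456 to 459) and low for Sspn (88.5 RPKM, others 92.0 to 92.3). Of the related genes, Nbr1 was low in AAV-Cre library 2 (28.1 RPKM, others 30.1 to 30.3), Trim55 was high in AAV-Luc library 1 (48.5 RPKM, others 42.6 to 43.3) and Chn1 was high in AAV-Luc library 2 (4.84 RPKM, others 4.45 to 4.51).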

How the results depend on the processing

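The count of 30 members higher became 12 after centring, 14 after quantile normalization and 17 with mitochondrial and haemoglobin genes left out. The count of 6 lower became 3 without a filter and 11 after centring. The genes called across the table, 12013, became 7527 after centring, 7648 after quantile normalization and 7705 with a mean of at least 5 RPKM. Leaving out each library gave 27 to 30 members higher, 3 to 5 lower, 11248 to 11767 genes called, and 7 to 12 higher and 9 to 13 lower after centring. Centring turned the sign of Actn2 (-0.023), Mypn (-0.21), Palld (-0.14), Synpo2 (-0.27), Ttn (-0.022), Myom1 (-0.21), Lmod2 (-0.12), Tmod1 (-0.27), Des (-0.12), Sspn (-0.24), Smyd1 (-0.13), Unc45b (-0.037), Trim55 (-0.060), Tmod3 (-0.11) and Lmod1 (-0.12). Quantile normalization turned Mypn (-0.18), Palld (-0.042), Synpo2 (-0.23), Tmod1 (-0.18), Sspn (-0.14), Smyd1 (-0.021), Tmod3 (-0.081) and Lmod1 (-0.17). Leaving out mitochondrial and haemoglobin genes turned Mypn (-0.069), Palld (-0.0096), Synpo2 (-0.13), Myom1 (-0.081), Tmod1 (-0.14) and Sspn (-0.11). Myoz2 turned to 0.0097 with library weights, to 0.0011 to 0.012 without AAV-Cre library 3 or AAV-Luc library 2 or 3 (-0.076 to 0.012 over the settings without 1 library), to 0.032 without the libraries with the most Myl7, and to 0.033 without AAV-Cre library 3 and AAV-Luc library 3 together. That last choice was made after the data were seen, and it left 26 members higher and 6 lower. The log2 ratio of Myom3 to Myom1 turned to -0.027 with a pseudocount of 1, and the log2 ratio of Palld to Mypn to -0.014 without AAV-Cre library 4, in a range of -0.014 to 0.11 over the settings without 1 library. The 7 ratios that passed kept their sign without any 1 library. Without AAV-Cre library 3, 8 pairs passed (smallest adjusted p 0.0429), though not Tln1 to Tln2. Pseudocounts of 0.1 and 1 and a robust prior changed no call of a member as deposited, while after centring a pseudocount of 0.1 gave 10 higher and 13 lower. The cause of these changes was not tested. No paired analysis was possible because the columns carry the name of a group and 1 number, the same in every column, that tells no library from another. Myom3 was left out by the filter of 1 RPKM.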
